A study of Sus scrofa with 180 samples.

Results

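Nuclear genes for the respiratory chain and the ATP synthase were followed in 2 muscles of the same pigs. The respiratory chain of the inner mitochondrial membrane passes electrons from NADH (complex I) or succinate (complex II) through complex III to oxygen (complex IV), and complex V uses the proton gradient that results to make ATP. Most of its subunits are encoded in the nucleus, all of complex II among them, whereas a small core of complexes I, III, IV and V is encoded in the mitochondrial genome. Oxidative muscle fibres are rich in these proteins, and muscles of the pig differ in their share of such fibres.

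The genes were every symbol beginning with NDUF, SDHA, SDHB, SDHC, SDHD, UQCR, COX or ATP5, and CYC1, among the 3481 genes that the study's lists of probes differing between the muscles name. They were 39 genes, read by 45 probes. Of these, 33 were counted as subunits (39 probes), with the complex taken from the symbol: 15 genes of complex I, 2 of complex II, 4 of complex III, 7 of complex IV and 5 of complex V. The other 6 were SDHAF1 and SDHAF2 (assembly factors of complex II), COX10 (haem A synthesis), COX16 (assembly), COX17 (a copper chaperone) and COX4NB, which carries its symbol because it lies beside the COX4 gene. Because the lists were made from the contrast of the muscles, that contrast chose the genes, and the differences between the muscles below are a description with no test. The second list was at hand without 400 of its rows, so a subunit named only there was not analysed here.

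The arrays were single-colour Agilent arrays of the Longissimus (LM, a back muscle) and the Semimembranosus (SM, a ham muscle), 90 of each and 1 for each muscle of 90 pigs. Per the series' design text and the study's methods, the pigs were females and barrows of an F2 intercross of a Pietrain type line (FH016) with the FH019 line, free of the HAL and RN mutations, from a pair of half-sib families, slaughtered at commercial age. No pig was treated, and the sample came from the superficial part of each muscle after death. The labels hold no sex, slaughter batch or carcass weight, so none of these entered a model. Values are log2 of the processed spot signal minus the median of the array, so that 1 unit is a doubling and 0 is the array's median probe, and levels of different probes are not comparable. The median signal of an array was 171 to 304 in LM and 105 to 252 in SM. LM filled 21 slides and SM 14, and no slide held both muscles, so muscle and slide cannot be told apart. In bulk muscle, fewer fibres of a type and less RNA per fibre cannot be told apart either.

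Probe sequence is shown first because a group of C-rich probes moved together below. Whether the sequence caused this was not tested. The first 30 bases of 9 probes, as the scanner files give them, are printed 5′ to 3′, with the first 15 bases in capitals, the stretch in which C was counted.
NDUFA3: CTCCCCAGCGGCCCCcaataaaaatatgaa
NDUFA4L2: CCTGCTCCCCTCTGTcccccgggatcaaac
COX4I2: TGGCGGCTCCTCCCCttcccttaactgcaa
NDUFA10, first probe: CTCTCGCCAGCCTGCcctttccggaacata
CYC1: TTCTAGCTCCAGATGgttcggcactcatcg
SDHA: GCCTTTGTCCCTGCTtcgttcttgtgaaat
ATP5I: TTAAGGGATGAATGTcaggcctttacctag
UQCRH: GTTGTATGAATCAAAggatacggtctgtgg
ATP5E: ACAAAGGACCAGCAActgcattttctcttt
NDUFA3 had 10 C in its first 15 bases, and NDUFA4L2, COX4I2 and the first NDUFA10 probe had 8 each. These 4 were the only subunit probes with 8 or more, a count that 1.96% of the 10987 probes kept for analysis reached. CYC1 had 4, SDHA 6, ATP5I 0, UQCRH 1 and ATP5E 4. The C-rich index of an array, used below, is the mean of all probes with 8 or more C minus that of probes with 2 or fewer, each probe centred first. It ran from -1.13 to 0.36 in LM and from -0.32 to 1.14 in SM.

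Of the 33 subunit genes, 25 were higher in SM and 8 were higher in LM. The median difference, LM minus SM, was -0.56 (log2) over the 33 genes and -0.07 over all 10987 probes. Over the whole array, 47.7% of probes passed the test toward SM and 35.7% passed it toward LM (limma, adjusted p of 0.05 or less), and all 45 probes of the 39 genes were called, as the choice of the genes implies. For none of the 45 probes did the arrays of LM and SM separate without overlap. The share of all probes that separate is not given here, so that count is a description only. With the pig as a replicate block, since the muscles are paired within pigs, the count was again 25 of 33 and the median was -0.55. With the C-rich index as a covariate, the count was 23 of 33 and the median was -0.32.

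**Figure D1:**
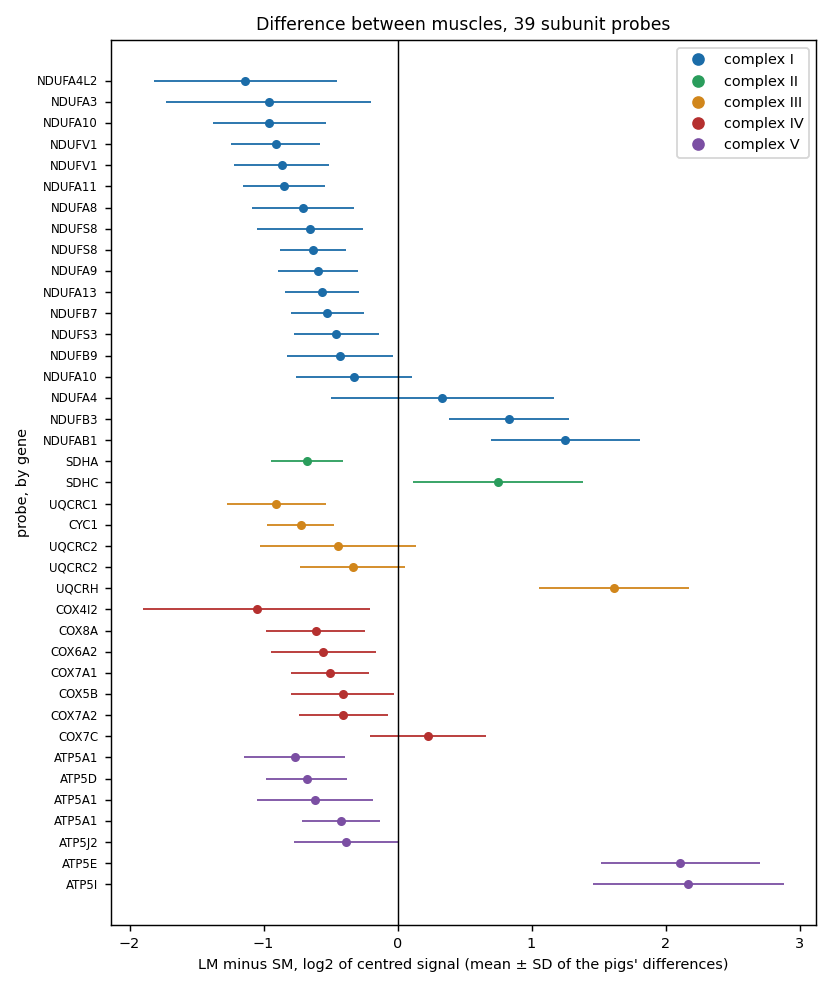
Difference between the muscles (LM minus SM, log2 of centred signal) for the 39 subunit probes, grouped by complex; points are means and bars the SD of the pigs' own differences. Most probes of complexes I, III and IV sit between -1.14 and -0.32, whereas ATP5I, ATP5E, UQCRH and NDUFAB1 sit above 1.

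Complex I takes electrons from NADH. Of its 15 genes, 12 were higher in SM, with a median difference of -0.59 over the complex. NDUFV1, which binds the flavin that accepts electrons from NADH, was read by 2 probes. The first had a lowest value of 3.68, a median of 4.23 and a highest value of 4.96 in LM against 4.17, 5.10 and 5.89 in SM, and the second had 4.29, 4.76 and 5.51 against 4.76, 5.68 and 6.44. SM was the higher muscle in 90 of 90 pigs by the first probe and in 89 of 89 by the second, although the ranges of the muscles overlapped. The mean differences were -0.86 ± 0.35 (SD of the pigs' differences, n = 90) and -0.91 ± 0.34 (n = 89), a ratio of 1.82 and 1.88.

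NDUFS8, a core subunit that carries iron-sulphur clusters, also had 2 probes. They read 0.43, 1.00 and 1.73 in LM against 1.22, 1.67 and 2.22 in SM, and 5.73, 6.15 and 7.58 against 6.20, 6.83 and 7.80 (lowest, median and highest). Both probes were higher in SM, by 0.63 and 0.65 on the log2 scale. NDUFA10, an accessory subunit, had 2 probes from 1 source sequence. The C-rich probe read -1.45, -1.0 and 0.07 in LM (n = 84) against -0.77, -0.10 and 1.28 in SM (n = 87). The second probe was near the background, missing for that reason on 38 arrays of LM and 33 of SM, and read -4.12, -3.56 and -2.85 against -3.82, -3.23 and -2.54. Both were higher in SM, with differences of -0.96 and -0.32. NDUFA3, NDUFA8, NDUFA9, NDUFA11, NDUFA13, NDUFB7 and NDUFB9 (accessory subunits) and NDUFS3 (a core subunit of the peripheral arm) were higher in SM too, by 0.43 to 0.96.

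NDUFA4L2, a paralogue of NDUFA4 that low oxygen is known to induce, was counted in complex I by its symbol only. It had the largest difference toward SM among the genes so counted. It read 2.88, 3.94 and 6.16 in LM (n = 81) against 4.12, 5.14 and 6.45 in SM (n = 90), a difference of -1.14 ± 0.68. With the C-rich index as a covariate that difference was 0.10, toward LM. NDUFA4, named in complex I and now placed in complex IV, went the other way. It read -3.33, -1.90 and -0.57 in LM against -4.08, -2.22 and -0.54 in SM, was higher in LM by 0.33 ± 0.83 and was higher in SM in 32 of 84 pigs. The difference of NDUFA4 was 0.078 with normexp background correction and 0.051 with the C-rich index as a covariate. With NDUFA4 alone moved to complex IV, and NDUFA4L2 left in complex I, the medians of complexes I and IV were -0.62 and -0.46.

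NDUFAB1, the mitochondrial acyl carrier protein, had the largest difference toward LM in complex I. It read -3.09, -2.04 and -1.12 in LM (n = 90) against -4.14, -3.30 and -2.00 in SM, where only 49 arrays had a spot well above background. The difference was 1.25 ± 0.56, with LM the higher muscle in 47 of the 49 pigs measured in both. NDUFB3, an accessory subunit of the membrane arm, was a bright probe and was higher in LM by 0.83 ± 0.45, with 4.50, 4.92 and 5.36 in LM against 3.06, 4.10 and 4.96 in SM.

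Complex II oxidises succinate. SDHA, its catalytic flavoprotein, was higher in SM and SDHC, which anchors the complex in the membrane, was higher in LM. SDHA read 6.54, 6.94 and 7.54 in LM (n = 82) against 6.77, 7.64 and 8.15 in SM (n = 90), a difference of -0.68 ± 0.27 with SM higher in 81 of 82 pigs. SDHC read -0.94, 0.19 and 1.32 in LM against -1.56, -0.62 and 1.33 in SM, a difference of 0.75 ± 0.63. Of the assembly factors, SDHAF1 differed by -0.40 and SDHAF2 by -0.50.

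Complex III passes electrons to cytochrome c. UQCRC1 and UQCRC2 (core proteins) and CYC1 (cytochrome c1) were higher in SM, and UQCRH (the hinge protein) was higher in LM. UQCRC1 had the largest difference toward SM of the complex and read 5.08, 5.62 and 6.46 in LM (n = 83) against 5.28, 6.54 and 7.36 in SM, a difference of -0.90 ± 0.37. CYC1 read 7.26, 7.69 and 8.09 in LM (n = 83) against 7.66, 8.45 and 9.06 in SM (n = 90), a difference of -0.72 ± 0.25 with SM higher in 82 of 83 pigs. Some LM arrays gave no value for these bright probes: the spot was not uniform on 7 arrays for CYC1 and on 8 for SDHA.

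The 2 probes of UQCRC2 read 3.82, 4.67 and 5.37 in LM against 4.05, 5.00 and 5.80 in SM, and 2.8, 3.81 and 4.49 against 3.1, 4.28 and 4.94. Their differences were -0.34 and -0.44. UQCRH was dim and read -2.75, -1.72 and -0.56 in LM (n = 90) against -4.12, -3.38 and -2.44 in SM (n = 71). Its difference was 1.61 ± 0.56, a ratio of 3.06, with LM higher in 70 of 71 pigs.

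Complex IV reduces oxygen. Of its 7 genes, 6 were higher in SM, and the median difference was -0.50. COX4I2, an isoform of subunit 4, had the largest difference toward SM: it read 3.56, 5.41 and 7.83 in LM (n = 82) against 5.30, 6.43 and 7.78 in SM (n = 90), a difference of -1.05 ± 0.85. With the C-rich index as a covariate it was 0.45, toward LM. The isoform pair of subunit 7A went one way. COX7A1, the heart and muscle isoform, read 5.99, 6.57 and 7.22 in LM against 6.22, 7.12 and 7.70 in SM, and COX7A2, the ubiquitous isoform, read 2.82, 3.46 and 4.09 against 3.17, 3.86 and 4.53. Both were higher in SM in most pigs, in 84 of 90 and 79 of 90, with differences of -0.50 ± 0.29 and -0.41 ± 0.33.

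COX5B, COX6A2 (the heart and muscle isoform of subunit 6A) and COX8A were higher in SM by 0.41 to 0.61. COX7C alone was higher in LM, by 0.23 ± 0.43, with -1.18, -0.56 and -0.07 in LM against -1.69, -0.77 and 0.14 in SM, and its difference was -0.075 with the C-rich index as a covariate. Of the genes that are not subunits, COX10 differed by -0.72, COX16 by -0.36 and COX4NB by -0.62, whereas COX17 differed by 0.27, and by -0.015 with normexp background correction.

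Complex V makes ATP. ATP5A1 and ATP5D (the alpha and delta subunits of the F1 head) and ATP5J2 (subunit f of the membrane part) were higher in SM, and ATP5E (the epsilon subunit of F1) and ATP5I (subunit e of the membrane part) were higher in LM. The 3 probes of ATP5A1 read 3.22, 3.95 and 4.63 in LM against 3.76, 4.69 and 5.30 in SM, then 6.56, 7.09 and 7.61 against 6.85, 7.53 and 7.95, and 1.82, 2.53 and 3.19 against 2.12, 3.17 and 3.85. All 3 were higher in SM, with differences of -0.77, -0.42 and -0.62. ATP5D had the largest difference toward SM by gene, -0.68 ± 0.30, with -1.98, -1.12 and -0.21 in LM against -1.25, -0.43 and 0.45 in SM, and ATP5J2 differed by -0.38.

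ATP5I read -2.40, -0.90 and 0.29 in LM (n = 90) against -4.00, -3.16 and -1.46 in SM (n = 67). LM was the higher muscle in 67 of 67 pigs, and the difference was 2.17 ± 0.72, a ratio of 4.50. ATP5E read -1.30, -0.53 and 0.21 in LM (n = 90) against -3.75, -2.59 and -1.02 in SM (n = 80). It too was higher in LM in every pig measured in both muscles (80 of 80), by 2.11 ± 0.59, a ratio of 4.32. The SM means of these dim probes rest on the arrays where the spot rose above background: with failed spots kept, the differences were 2.53 for ATP5I, 2.22 for ATP5E, 1.74 for UQCRH and 1.83 for NDUFAB1. With normexp background correction they were 1.34, 1.28, 0.76 and 0.51.

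The mean over all subunit probes was higher in SM in 82 of 90 pigs. By complex, that held in 89 pigs for complex I, 87 for complex IV and 65 for complex III, but in 37 for complex II and 31 for complex V, which hold SDHC, ATP5E and ATP5I. A pig's mean took only the probes with a value in both its muscles, so the probes averaged differ between pigs. ATP5I had such values in 67 pigs, UQCRH in 71, ATP5E in 80 and SDHA in 82. Genes with several probes weigh more. These counts therefore depend on missing spots too and are a description only.

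The question of covariation is separate from the choice of the genes, since it compares pigs inside 1 muscle. Each probe was set against SDHA across the arrays of a muscle, with the slide as a term (limma, Benjamini-Hochberg over all probes but SDHA). In LM, 24 of 38 subunit probes rose with SDHA, against 5.25% of all probes. In SM, 27 of 38 rose, against 12.5% of all probes. None fell in either muscle, where 7.11% of all probes fell in SM. The share of all probes that fell in LM is not given here, so the LM count is a description only. The median r of the subunit probes with SDHA was 0.46 in LM and 0.60 in SM, beside 0.01 and 0.03 over all probes. All probes of an array share its RNA, labelling and scan.

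CYC1 was the probe closest to SDHA of all in SM and the second closest in LM. In LM its slope was 0.84 ± 0.08 (SE) log2 units per log2 unit of SDHA, with r = 0.84 over 80 arrays (rho = 0.83, permutation p = 1e-05, the smallest that 100000 draws can give) and r = 0.82 without the 2 arrays farthest in SDHA. In SM its slope was 0.83 ± 0.05, with r = 0.91 over 90 arrays (rho = 0.89, permutation p = 1e-05) and r = 0.90 without those 2. With the median signal and the share of spots above background of each array as covariates, r was 0.85 and 0.93. In all, 133 such relations were permuted, and the adjusted p of CYC1 over all probes was 2.07e-12 in LM and 6.19e-24 in SM.

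**Figure D2:**
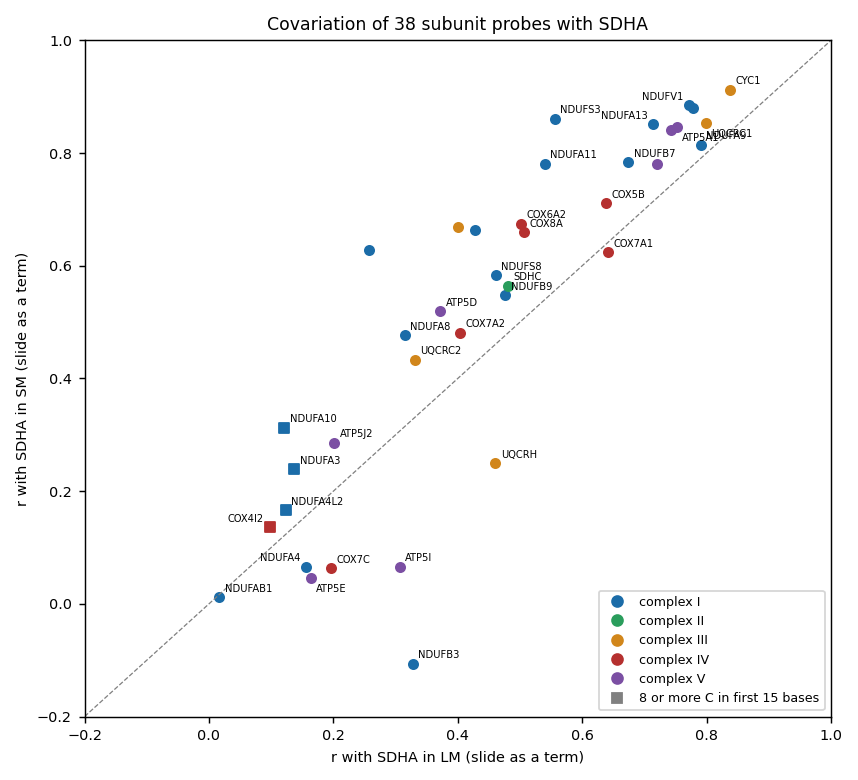
Correlation of 38 subunit probes with SDHA in LM (x axis) and in SM (y axis), slide as a term; colours give the complex, squares mark the C-rich probes, and further probes of a gene carry no name. CYC1 is at 0.84 and 0.91, and the 4 squares stay at or below 0.31 in both muscles.

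The genes that rose with SDHA in both muscles came from every complex. They were 19 genes by 23 probes: NDUFA9, NDUFA11, NDUFA13, NDUFB7, NDUFB9, NDUFS3, NDUFS8 and NDUFV1 of complex I, SDHC of complex II, CYC1, UQCRC1 and UQCRC2 of complex III, COX5B, COX6A2, COX7A1, COX7A2 and COX8A of complex IV, and ATP5A1 and ATP5D of complex V. By complex, the rising probes in LM and SM were 10 and 13 of 18 (I), 1 and 1 of 1 (II), 4 and 4 of 5 (III), 5 and 5 of 7 (IV) and 4 and 4 of 7 (V). In LM, UQCRC2 passed by 1 of its 2 probes (r = 0.40) and not by the other (r = 0.33). NDUFV1 had r = 0.78 and 0.77 by its 2 probes in LM and 0.88 for both in SM. UQCRC1 had 0.80 and 0.85, NDUFA9 had 0.79 and 0.82, and the 3 probes of ATP5A1 had 0.72 to 0.75 in LM and 0.78 to 0.85 in SM. Among the 40 probes with the highest r, 10 in LM and 12 in SM were members of the set. Others named there in both muscles were DLST (of the citrate cycle), ACADS (fatty acid oxidation), TUFM (mitochondrial translation), SAMM50 (import into the outer membrane) and CCBL1.

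Under 10 ways of processing (the one used here and 9 alternatives), 14 probes of 11 genes rose with SDHA in both muscles in every setting: ATP5A1, COX5B, COX7A1, COX8A, CYC1, NDUFA9, NDUFA13, NDUFB7, NDUFB9, NDUFV1 and UQCRC1. Among the 6899 probes that every one of these could test, 1.16% did so. SDHC, although higher in LM, rose with SDHA inside each muscle. Its slope was 1.14 ± 0.26 in LM (r = 0.48, adjusted p = 0.00251 by limma) and 0.94 ± 0.16 in SM (r = 0.56, adjusted p = 2.97e-06).

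There were 10 subunit genes that passed the test in neither muscle. NDUFA4, NDUFAB1, NDUFB3, COX7C, ATP5E and ATP5I, all higher in LM, had r of 0.02 to 0.33 in LM and -0.11 to 0.07 in SM. NDUFA3, NDUFA4L2 and COX4I2, with 8 or more C, had 0.10 to 0.14 in LM and 0.14 to 0.24 in SM. With quantile normalization they had -0.52 (NDUFA3), -0.55 (NDUFA4L2) and -0.59 (COX4I2) in LM, all past the threshold. Under the 10 ways of processing, NDUFA4L2 and COX4I2 rose with SDHA in LM in 1 each, and their highest r was 0.45 and 0.46. In SM, NDUFA3 rose in 2 of the 10, and NDUFA4L2 and COX4I2 in 1 each. ATP5J2 had 0.20 and 0.29. UQCRH passed in LM (r = 0.46, adjusted p = 0.00452) and not in SM (r = 0.25, adjusted p = 0.171), where its r was -0.40 with normexp background correction.

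No member's slope on SDHA differed between the muscles after adjustment (limma, 44 probes tested, lowest adjusted p 0.392), where 0.0273% of all probes were called. At an unadjusted p of 0.05 or less there were 2 of 44, against 9.58% of all probes. With failed spots kept, 12 of 38 subunit probes were called, against 2.7% of all probes, and with quantile normalization 3 of 38, against 1.47%.

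**Figure D3:**
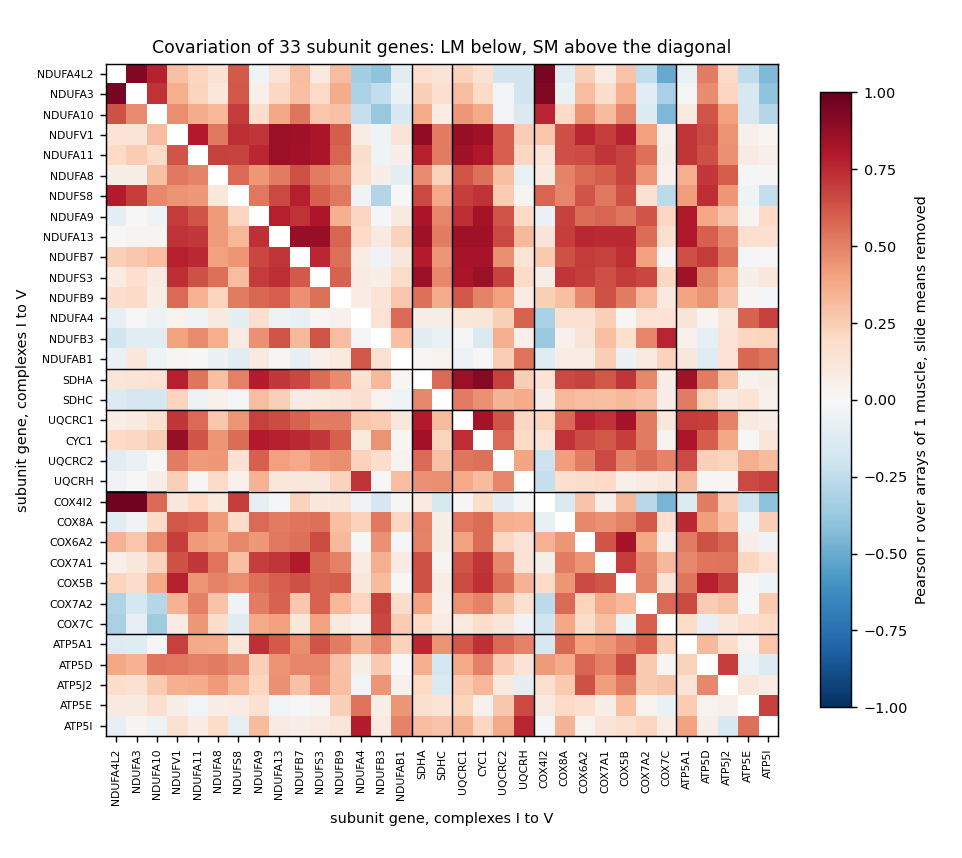
Pearson r between the 33 subunit genes over the arrays of 1 muscle after removal of slide means, with LM below and SM above the diagonal and black lines between complexes I to V. The red blocks cross the lines between complexes. NDUFA3, NDUFA4L2 and COX4I2 had r of 0.92 to 0.96 among themselves, and NDUFS8 and NDUFA10 had r of 0.48 to 0.78 with them.

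Pairs within and between complexes had similar medians when pooled, and the difference was not tested. The median r of gene pairs within a complex was 0.31 in both LM and SM (143 pairs), and that of pairs from different complexes was 0.29 in LM and 0.31 in SM (385 pairs). Most of the pairs within a complex (105) were of complex I, with a median of 0.25 in LM and 0.30 in SM. Complex III had 0.51 and 0.48 over 6 pairs, against 0.27 and 0.34 with complex I, 0.35 and 0.50 with complex IV, and 0.34 and 0.35 with complex V. Over all pairs of the 10987 probes the median was 0.004 in LM and 0.005 in SM. The means over the subunits of a complex, after removal of slide means, correlated most between complexes I and IV, with r = 0.85 (rho = 0.85) in LM and 0.84 (rho = 0.79) in SM over 90 arrays each. Complex I holds the C-rich probes of NDUFA3, NDUFA4L2 and NDUFA10, and complex IV that of COX4I2. COX4I2 had r = 0.96 with NDUFA3 in LM and 0.93 in SM. The part of these probes in the r of complexes I and IV was not tested. Complexes II and IV had r = 0.17 in LM and 0.56 in SM. These r are a description, since the members were chosen together.

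Within the set, 3 groups of genes moved together, which were picked out after their values were seen. The first was SDHA, CYC1, NDUFV1, UQCRC1, ATP5A1 and NDUFA9, whose 15 pairs had r of 0.62 to 0.87 in LM and 0.70 to 0.91 in SM. The second was ATP5I, ATP5E, UQCRH, NDUFAB1 and NDUFA4, dim probes that were higher in LM, whose 10 pairs had r of 0.31 to 0.78 in LM and 0.54 to 0.69 in SM. Pairs between the first and the second group had a median r of 0.22 in LM and 0.11 in SM. The bright NDUFB3 and the dimmer COX7C, also higher in LM, followed each other with r = 0.67 and 0.76.

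The third group was NDUFA3, NDUFA4L2 and COX4I2, the C-rich probes printed above. Their pairs had r of 0.95 to 0.96 in LM and 0.92 to 0.95 in SM. With the C-rich index of the arrays they had r of 0.91, 0.93 and 0.95 in LM and 0.94, 0.97 and 0.97 in SM, and the C-rich NDUFA10 probe had 0.73 and 0.84. The probes of NDUFS8, with 2 and 7 C, had 0.54 and 0.55 in LM and 0.57 and 0.53 in SM, and ATP5D, with 2, had 0.46 and 0.49. CYC1 had 0.12 and 0.14 with the index, and SDHA had 0.04 and 0.16. With the index as a covariate, the differences between the muscles became 0.30 for NDUFA3, 0.10 for NDUFA4L2 and 0.45 for COX4I2, opposite in sign to those above, and -0.32 for the C-rich NDUFA10 probe, while that of CYC1 was -0.63 and that of SDHA was -0.61. The index includes these C-rich probes, so their r with it is in part with themselves. Its median was -0.37 in LM and 0.35 in SM, so as a covariate it cannot be fully separated from the muscle. Which part of the index is technical, and whether C content caused the covariation, was not tested.

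**Figure D4:**
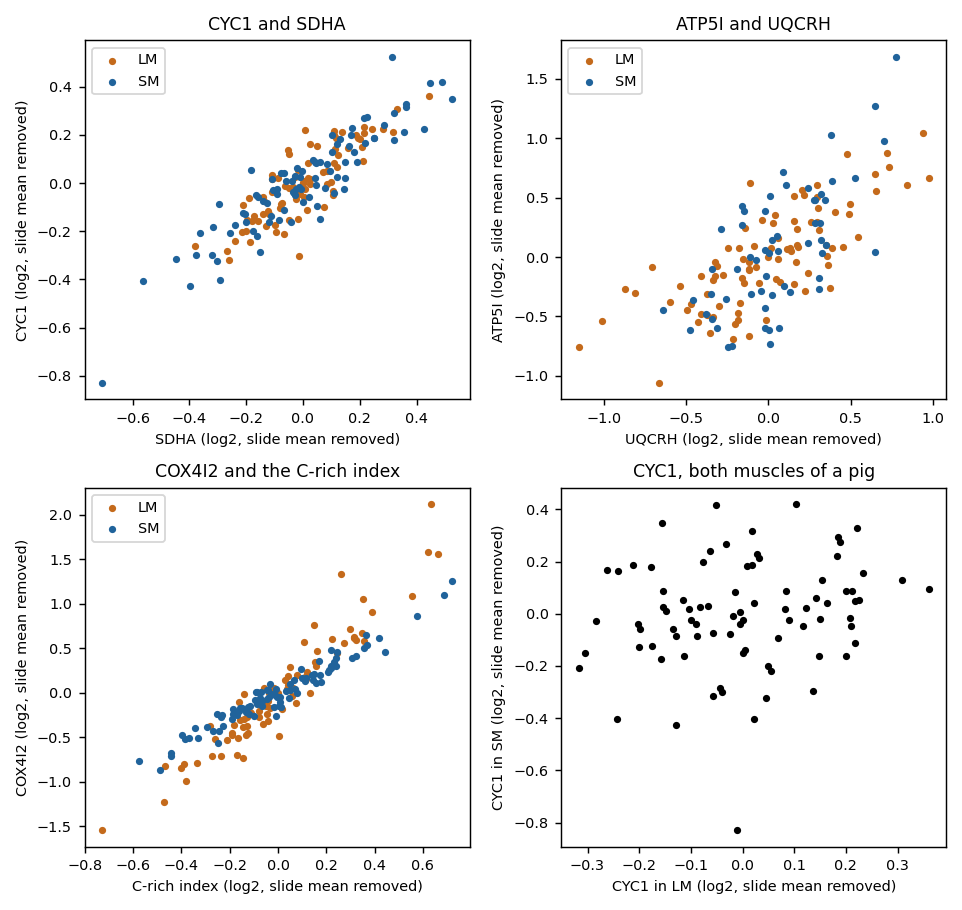
Log2 values after removal of slide means, 1 point per array: CYC1 against SDHA, ATP5I against UQCRH and COX4I2 against the C-rich index in LM and SM, and CYC1 in the LM against the SM of the same pig. The first 3 panels show close relations (r = 0.84 and 0.91, 0.76 and 0.68, 0.95 and 0.97 in LM and SM) and the last a weak one (r = 0.18).

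Probes of 1 gene gave a check on this. The 2 probes of NDUFV1 followed each other with r = 0.98 in both muscles, and the 3 of ATP5A1 with 0.89 to 0.94 in LM and 0.90 to 0.95 in SM. The 2 probes of NDUFS8 had 0.46 and 0.72. Those of NDUFA10, of which 1 is C-rich and 1 dim, had 0.12 and 0.32, and those of UQCRC2, which come from 1 source sequence and are both well above background, had -0.29 in LM and 0.18 in SM. Values of UQCRC2 and NDUFA10 averaged over probes are therefore uncertain.

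The mitochondrial genome gave a second yardstick, the mean of 18 probes of 10 genes. In LM, 21 of 39 subunit probes rose with it, against 1.86% of all probes, and in SM 27 of 39 rose, against 9.33%. None fell in either muscle, where 8.72% of all probes fell in SM. For LM that share is not given here either, so its count is a description only. COX5B had r = 0.65 in LM and 0.66 in SM, SDHA 0.68 and 0.49, CYC1 0.67 and 0.43, and NDUFV1 0.63 to 0.66 and 0.56 to 0.57. SDHC passed in neither muscle (r = 0.19 and 0.12). All 18 mitochondrial probes were higher in SM, with a median difference of -0.49.

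Between the muscles of a pig, r was far lower than the r with SDHA inside a muscle, but these measures are unlike. Inside a muscle, r is between different probes of the same arrays. Between muscles, it is between values of the same probe on arrays of different slides. The pairing rests on the pig numbers. Across probes, a pig's muscles had a median r of -0.002, and muscles of different pigs had -0.0007. The r of LM with SM over pigs, after removal of slide means, had a median of 0.08 over the 44 probes with 40 or more pigs, with a range of -0.26 to 0.23, and a median of 0.01 over all probes. CYC1 had r = 0.18 over 83 pigs (rho = 0.19, permutation p = 0.0804 for r and 0.0454 for rho, unadjusted), and r = 0.14 without the 2 pigs farthest from the median in LM. The relation farthest from 0 was negative, that of COX4NB, with r = -0.26 over 90 pigs (rho = -0.28, permutation p = 0.0158 for r and 0.00849 for rho, unadjusted). ATP5D had the highest, r = 0.23 over 86 pigs (rho = 0.22, permutation p = 0.0354 for r and 0.0443 for rho, unadjusted). In the F test of the pig over all probes (limma), 0 of 44 member probes were called, where 0.274% of all probes were, and the lowest adjusted p was 0.171, for ATP5D. At an unadjusted p of 0.05 or less there were 12 of 44, against 12.8% of all probes. The second NDUFA10 probe could not be fitted. Without the slide as a term, 2 of 39 subunit probes were called, against 2.71% of all probes.

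Other genes of mitochondrial energy supply were read from fixed lists. Of the citrate cycle, 9 of 14 genes were named, by 12 probes, and 9 probes rose with SDHA in each muscle. DLST (of the oxoglutarate dehydrogenase complex) had r = 0.74 in LM and 0.82 in SM. DLD, the dehydrogenase that this complex shares with others, was higher in LM by 0.96 and had r = 0.56 in LM and -0.02 in SM. Of the regulators, 5 of 9 were named, by 5 probes, 3 of them higher in SM and 2 in LM. With SDHA, 1 of the 5 rose in LM and 3 rose in SM. ESRRA, a nuclear receptor that drives these genes, was higher in SM in 90 of 90 pigs and rose with SDHA in both muscles (r = 0.57 and 0.62), whereas TFAM, which packs and transcribes mitochondrial DNA, was higher in LM by 1.11 and passed in neither (r = 0.08 and -0.23). CKMT2 (mitochondrial creatine kinase) and VDAC2 (a channel of the outer membrane) rose in both.

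Of the muscle fibre markers, 8 of 14 were named, without the slow and the fast oxidative myosin genes MYH7 and MYH2. Of their 14 probes, 9 were higher in LM, and the median difference was 0.69. ACTA1 and MYH1 were bright in every array, every one of their measured values being 7.89 or above, and 1 of the 3 NEB probes fell with SDHA in LM. In SM, TNNI1 and MYL2 (of slow fibres) rose with SDHA, with r of 0.36 each, and MYL1 (fast fibres, r = -0.52) and another of the NEB probes fell. No other of the 14 fibre probes was called with SDHA in SM, and none rose with it in LM. The median r of the 14 with SDHA was 0.04 in LM and -0.08 in SM. For smooth muscle and pericytes, 7 of 9 markers were named (9 probes), all 9 higher in SM, with a summed level of 9.01 to 10.7 in LM and 9.48 to 10.6 in SM, and none was called with SDHA. No subunit probe was called with MYH11 (smooth muscle myosin) in either muscle, where 0.146% of all probes rose with it in LM and 4.42% in SM. Counted in both directions, 0.146% of all probes were called in LM and 7.22% in SM. The nearest subunit probe was ATP5E in SM (r = -0.34, adjusted p = 0.0528 by limma). With normexp background correction 5 of 39 were called in LM and 6 of 39 in SM, against 26.3% and 28.5% of all probes. For adipocytes, 3 of 5 were named, all 3 higher in SM, with summed levels of -1.61 to 3.70 in LM and -0.46 to 3.88 in SM, and none was called with SDHA. Red blood cells had 1 of 4, HBA2, whose 3 probes were all higher in SM (median difference -1.12) and rose with SDHA in SM (r of 0.33 to 0.43) and not in LM, with summed levels of 3.15 to 10.4 and 4.10 to 7.05. Endothelium had 2 of 5, both higher in SM (median difference -0.54), of which VWF rose with SDHA in LM, with summed levels of 1.28 to 2.15 in LM and 1.87 to 3.27 in SM. Macrophages had 2 of 5, with summed levels of -1.14 to 8.74 in LM and 0.72 to 4.65 in SM. The part of other cell types in the differences between the muscles was not tested.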

How the data were processed

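Spots of 180 arrays were read with Agilent Feature Extraction. The deposited files hold an intensity per spot on a linear scale, from which the authors' software had subtracted the background, and arrays were not normalized to each other. The authors' own table, deposited on the natural log scale, served as an alternative. Probes were named only from the study's supplementary lists.

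Processed signals were turned into log2 values. Probes of which more than 50% of spots failed (dim, non-uniform or saturated) in either muscle were dropped, each array was centred on its median, failed spots were set to missing, and values beyond 3 SD of their probe were removed. This kept 10987 of 15198 probes. Models were fitted over all probes with limma 3.58.1 and statmod 1.5.0 in R 4.3.3, with Benjamini-Hochberg adjustment and a threshold of 0.05, and were tested on simulated data. The slide was a fixed term in every model except that of the muscles. Slide means were removed before correlations, and permutations (100000, two-sided) were made within slides. Intervals and precision rest on the number of arrays only.

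The members and gene lists were chosen with earlier results of these data known. Levels were given, by rule, for the member farthest toward each muscle in each complex, genes with several probes and the isoform pairs; CYC1, NDUFB3 and ATP5E were added after their values were seen. The same pig number pairs the muscles: over 89 pigs with a deviation in both, the median r of a pig's muscles across probes was -0.002. For muscles of different pigs it was -0.0007. The SM array closest to an LM array was that of the same pig in 1 of the 89. The pairing therefore rests on the pig numbers alone. The authors' fold changes in those lists were not used.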

Additional observations from a re-analysis of the deposited data

How the results depend on the processing

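The count of subunit genes higher in SM was 25 under every alternative except the C-rich index as a covariate (23). With the pig as a replicate block, 9159 of all probes were called between the muscles, against 9169 without it. The number called was 8629 with the slide as a random block and 8142 with the C-rich index as a covariate. The median difference became -0.32 with that index. With it as a covariate the differences of NDUFA3 (0.30), NDUFA4L2 (0.10), COX4I2 (0.45) and COX7C (-0.075) turned, and with normexp that of COX17 (-0.015). The counts that rose with SDHA stayed within 19 to 25 in LM and 24 to 29 in SM. Fits with UQCRC1, NDUFV1 or ATP5A1 as the covariate in place of SDHA are among these. The counts that rose with the mitochondrial genome stayed within 17 to 23 and 24 to 32. The share of all probes that rose moved more. With SDHA itself it ran from 4.11% to 6.67% in LM and from 8.93% to 24% in SM. With UQCRC1, NDUFV1 or ATP5A1 in its place it ran from 2.65% to 8.41% and from 8.29% to 15.3%. With the mitochondrial genome it ran from 1.25% to 21% in LM (21% without the slide term, 7.05% with normexp) and from 8.12% to 16.5% in SM. Of single relations, ATP5J2 with the mitochondrial genome in LM had r = -0.043 with normexp, and the C-rich NDUFA10 probe with SDHA in SM had r = -0.013 with quantile normalization. Relations with SDHA that did not pass here turned further: with quantile normalization COX4I2 had r = -0.59, NDUFA4L2 -0.55 and NDUFA3 -0.52 in LM, and with normexp UQCRH had r = -0.40 in SM, each past the threshold, and NDUFA8 had -0.12 in LM, short of it. Calls with MYH11 over both muscles numbered 11 with normexp, 0 with signal covariates and 1 under the other alternatives (the C-rich index, no slide term, the 75th percentile, quantile normalization, failed spots kept, no removal of outlying values and the deposited table). Slope differences numbered 3 with quantile normalization and 12 with failed spots kept, and 0 otherwise. Pig effects numbered 2 without the slide term and 0 otherwise. The cause was not tested. Signal near background limits ATP5I, UQCRH, ATP5E, NDUFAB1 and the second NDUFA10 probe.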
